A study of Rattus norvegicus with 36 samples.

Results

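The mature miRNAs rno-miR-21-5p and rno-miR-21-3p are the products of the left and right arms of the rat Mir21 hairpin. They were taken by name from the deposited count table, where they are 2 of 947 features, and 5p has reads in all 36 libraries and 3p in all but 1. Small RNA was sequenced from lung and from whole blood drawn from the heart of female WAG/RijCmcr rats, aged 9 to 10 weeks at irradiation. The 15 Gy groups received 320-kVp X-rays to the whole thorax as a single dose and were studied at 1, 2, 3 and 4 weeks, with the whole lung, the heart and some liver in the field. The 0 Gy groups were age-matched rats kept without irradiation and studied at 1 and 4 weeks. Each of the 6 groups of a tissue has 3 libraries, 36 in all. The study states that a library pools RNA of 3 rats, while the labels give 3 rats per group, so n counts libraries throughout, and p-values measure the spread between these pools.

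A miRNA hairpin is cut by Drosha and Dicer into a duplex, of which one strand is usually kept in Argonaute as the guide while the other is degraded. In Mir21 the 5p strand is the usual guide, and its targets in mammals include Pdcd4 and Spry1. The gene is switched on by STAT3 and AP-1, TGF-beta signalling promotes its maturation and it is known for its high level in inflamed and fibrotic tissue, lung included.

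The sequences of both arms are shown first, since the comparison of the arms rests on reads being told apart by them. The capitals mark the seed, bases 2 to 8 of the mature miRNA, through which most targets are recognised.
rno-miR-21-5p: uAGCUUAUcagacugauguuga
rno-miR-21-3p: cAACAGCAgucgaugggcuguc
In the hairpin, which shows where the arms lie, the capitals mark the 5p arm and then the 3p arm.
Mir21 hairpin: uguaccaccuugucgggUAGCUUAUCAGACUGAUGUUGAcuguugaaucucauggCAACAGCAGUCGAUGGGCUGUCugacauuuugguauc
Both arms are 22 bases long. The hairpin has 92 bases, with the 5p arm at bases 18 to 39 and the 3p arm at bases 56 to 77. The sequences are from RefSeq on the build GRCr8, where Mir21 lies on the minus strand at chr10:71902600-71902691. The 5p arm is at chr10:71902653-71902674 and the 3p arm at chr10:71902615-71902636. No other gene of the RefSeq table overlaps the hairpin. The nearest is Vmp1, a gene of autophagy and membrane contacts, 532 bases away at chr10:71903223-72002337. Among the 724 mature rat miRNAs of the RefSeq table, none but the arms themselves has either seed, so neither arm shares its seed with another rat miRNA there.

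A feature listed as new, named by its place on chromosome 10 from 74864475 to 74864611 in the build rn4, nearly repeated the 5p counts. Its count over that of miR-21-5p had a median of 0.99 in lung (range 0.95 to 1.29) and 0.977 in blood (range 0.895 to 1.02) over 18 libraries each. It is no independent measurement of the arm, and whether the same reads were counted under both names was not tested. The methods of the study state that new miRNAs were predicted from reads left after known miRNAs had been assigned.

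Total counts per library were 8132 to 3807051 in lung and 1156407 to 2340177 in blood. The red cell miRNA miR-486-5p alone took 0.693% to 48.1% of the counts in lung (median 2.27%) and 83.3% to 95.9% in blood (median 90.5%). The 48.1% is in the lung library with 8132 counts. A pair of lung libraries stood apart by depth, 15 Gy 3 weeks replicate 3 with 8132 counts and 0 Gy 1 week replicate 3 with 11621 counts, and values that rest on them are given with and without them. The labels of some blood libraries at 1 week are in doubt. Summed counts were 49.1% to 51.8% of the total reads that the study lists for 14 blood libraries, but were off that relation by more than 10% in 4, which are 15 Gy 1 week replicates 1 and 2 and 0 Gy 1 week replicates 2 and 3. These were at 41.8% and 64.55% of the listed reads at 15 Gy and at 63.1% and 39.1% at 0 Gy. An exchange between libraries of the same dose among them would change no comparison of groups, and whether it occurred was not tested. A supplementary count table of the study exchanges 15 Gy 1 week replicate 2 with the first 0 Gy replicate of that week. The checks do not name the same libraries, since that 0 Gy replicate was not off, at 50.37% of its listed reads. The tissue labels were borne out by marker miRNAs. The epithelial list of miR-200a, miR-200b, miR-200c, miR-141 and miR-375 summed to 3213 to 14274 CPM in lung libraries and to 3.06 to 18.3 CPM in blood libraries.

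In lung, miR-21-5p was among the moderately abundant miRNAs, rank 39 of the known rat miRNAs by read counts summed over libraries, and miR-21-3p stood at rank 171. Levels here are CPM, counts scaled to a common library total, after TMM scaling, which corrects that total for differences in composition. In 15 Gy lungs, miR-21-5p had 888, 493 and 1392 CPM at 1 week, 983, 938 and 749 CPM at 2 weeks, 1081, 1462 and 419 CPM at 3 weeks, and 2736, 1314 and 1939 CPM at 4 weeks. In 0 Gy lungs it had 776, 677 and 753 CPM at 1 week and 1115, 1037 and 1501 CPM at 4 weeks. The values 419 and 753 CPM come from the shallow libraries, where they are 3 and 14 reads. At 4 weeks the lowest 15 Gy lung lay between the 0 Gy lungs, and the other 15 Gy lungs were above every 0 Gy lung.

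Ordered by mean, the 5p level was highest in lung 4 weeks after 15 Gy, at 1996 ± 713 CPM (SD, n = 3, as for each group mean here). It was followed by 1218 ± 249 CPM at 0 Gy 4 weeks, 987 ± 528 CPM at 15 Gy 3 weeks, 924 ± 451 CPM at 15 Gy 1 week, 890 ± 124 CPM at 15 Gy 2 weeks and 735 ± 51.7 CPM at 0 Gy 1 week. The ranges of every pair of neighbours in this order overlapped. The gap between neighbours exceeded the larger SD only between the first and the second and between the fifth and the last. Without its shallow library, the 15 Gy 3 weeks group averaged 1271 ± 269 CPM (SD, n = 2).

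The 3p arm in lung was counted at 0 to 107 reads per library. In 15 Gy lungs, miR-21-3p had 1.41, 9.82 and 13.02 CPM at 1 week, 16.2, 20.1 and 51.8 CPM at 2 weeks, 21.2, 29.0 and 139.7 CPM at 3 weeks, and 50.9, 27.4 and 31.7 CPM at 4 weeks. In 0 Gy lungs it had 8.17, 8.56 and 0 CPM at 1 week and 14.1, 12.8 and 6.43 CPM at 4 weeks. The value of 139.7 CPM is a single read in a shallow library, and the 0 is in the other shallow library, where the limit that a count of 0 allows is 161 CPM. As listed, all 9 lung libraries of weeks 2 to 4 after 15 Gy were above all 6 libraries of 0 Gy, a grouping of weeks chosen after the values were seen, and 0.202% of 494 features were above in the same way. That share is miR-21-3p alone, in weeks grouped by its own values, so it is no independent background. The shallow pair carries no weight in this order of the libraries, since the limit of 161 CPM is above all 9 values. Without that pair all 8 libraries were above all 5, as were 0.81% of features. Of the libraries of 1 week after 15 Gy, those with 9.82 and 13.02 CPM lay among the 0 Gy values. The other, at 1.41 CPM on 2 reads, lay below every 0 Gy value but the 0 of the shallow library. By mean, 63.3 ± 66.3 CPM at 15 Gy 3 weeks came first, then 36.7 ± 12.5 CPM at 15 Gy 4 weeks, 29.4 ± 19.5 CPM at 15 Gy 2 weeks, 11.1 ± 4.09 CPM at 0 Gy 4 weeks, 8.08 ± 6.0 CPM at 15 Gy 1 week and 5.57 ± 4.83 CPM at 0 Gy 1 week. Only the third and the fourth had ranges that did not overlap, and no gap between neighbours exceeded the larger SD. Without its shallow library the 3 week group averaged 25.1 ± 5.49 CPM (SD, n = 2).

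**Figure D1:**
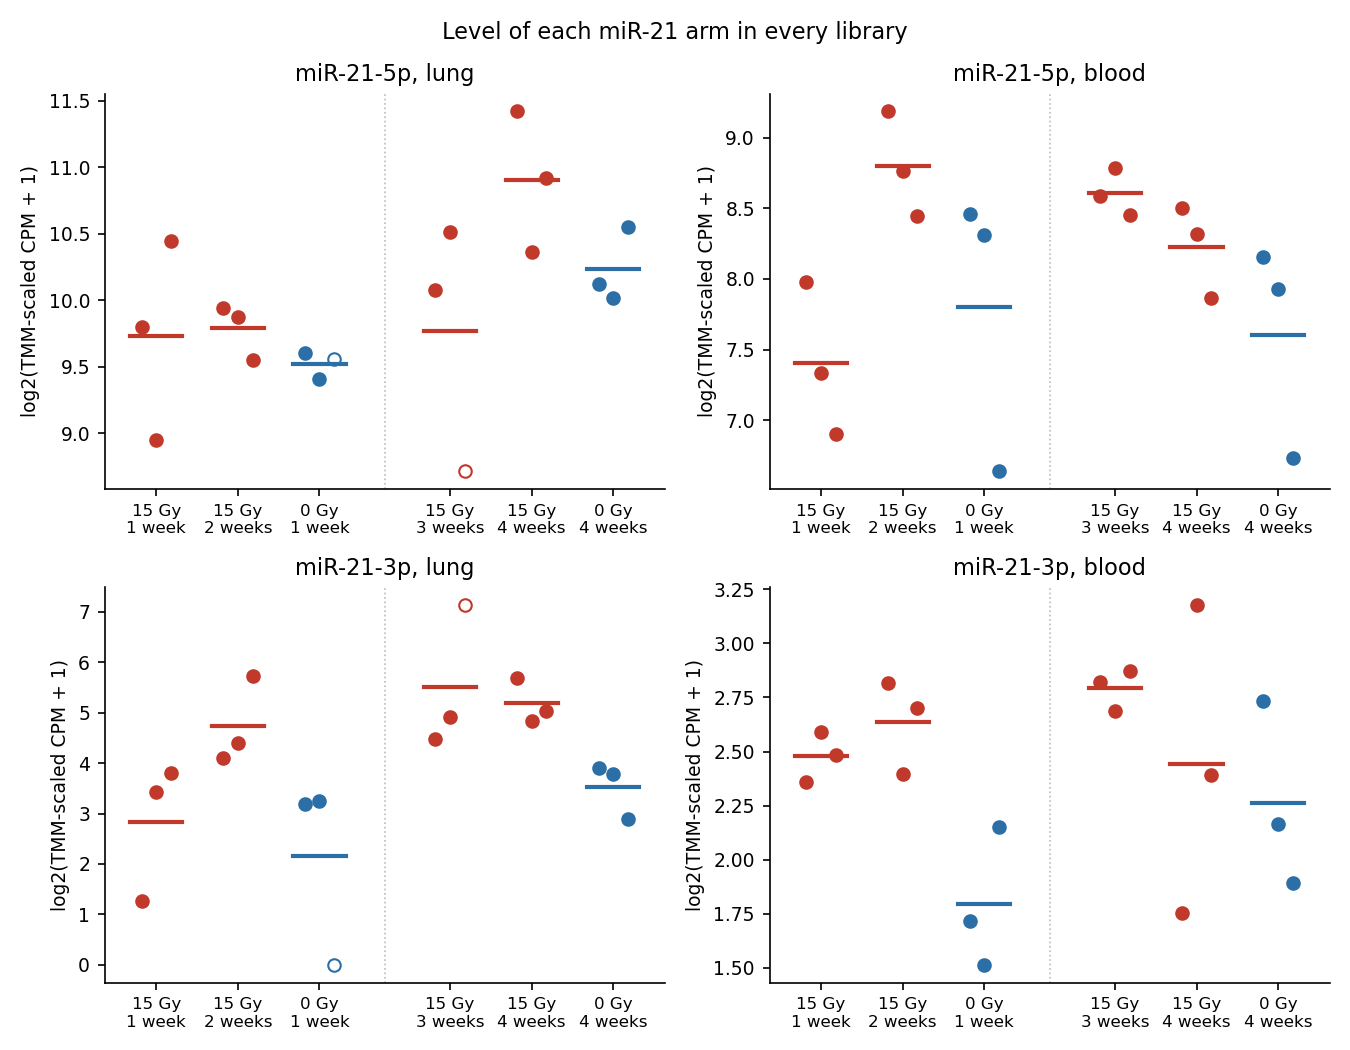
Each panel plots log2(TMM-scaled CPM + 1) of one arm (rows) in one tissue (columns) for every library, with 15 Gy groups in red left of their 0 Gy group in blue, a bar at the mean of the 3 log2 values, and open points for the 2 shallow lung libraries. For miR-21-3p the 8 filled points of 2 to 4 weeks after 15 Gy in lung lie above the 5 filled points of 0 Gy, as 0.81% of all features do in this grouping, chosen after the values were seen. For miR-21-5p each week after 15 Gy overlaps its 0 Gy group, except blood at 3 weeks. There all 15 Gy points lie above those of 0 Gy at 4 weeks, as for 12.8% of 288 features.

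The first pair of weeks after 15 Gy was set against 0 Gy at 1 week and the second pair against 0 Gy at 4 weeks, so that each pair shares its control libraries. All 499 features that passed the count filter in lung entered edgeR's quasi-likelihood test, and p-values were adjusted over them by Benjamini-Hochberg. Neither arm passed the adjusted threshold of 0.05 at any week. Over all features the test called 0% at each week in lung, with 52, 26, 39 and 48 features at an unadjusted p under 0.05 at weeks 1 to 4, while DESeq2 called 6, 6, 4 and 10. The log2 fold change of miR-21-3p was 1.76 ± 0.77 (SE) at 2 weeks (adjusted p = 0.824, edgeR), 1.40 ± 0.73 at 3 weeks (adjusted p = 0.589) and 1.70 ± 0.66 at 4 weeks (adjusted p = 0.453). The 95% intervals of these values ran from 0.25 to 3.27, from -0.02 to 2.83 and from 0.40 to 3.00. At 1 week the value was -0.01 ± 0.72, with a 95% interval of -1.43 to 1.40. The median over all features tested was 0.15, 0.10, -0.10 and -0.18 at weeks 1 to 4. Relative to it the 3p value at 4 weeks was 1.88.

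Without the shallow libraries the 3p values in lung were 1.52 at 2 weeks, 1.14 at 3 weeks and 1.81 at 4 weeks, and none passed (adjusted p = 0.998, 0.655 and 0.418, edgeR). At 2 weeks the value was 1.09 without 15 Gy replicate 3, the library with 51.8 CPM on 11 reads. At 4 weeks the call depended on the features counted. When only the 243 known rat miRNAs that passed the filter entered the fit, miR-21-3p was 1.82 higher on the log2 scale with an adjusted p of 0.0462 (edgeR), among 4 called of 243, or 1.65%, and the other alternatives at 4 weeks did not reach the threshold.

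For miR-21-5p in lung the log2 fold changes were smaller, at 0.33 ± 0.44 (SE) at 1 week, 0.28 ± 0.44 at 2 weeks, -0.25 ± 0.44 at 3 weeks and 0.71 ± 0.44 at 4 weeks, with adjusted p of 0.836, 1, 0.98 and 0.567 (edgeR). The 95% intervals ran from -0.53 to 1.19, from -0.58 to 1.14, from -1.11 to 0.61 and from -0.14 to 1.57, so the data allow a change of up to 1.57 on the log2 scale at 4 weeks and do not show that the arm stayed level. The sign changed with the control at weeks 1 to 3. Set against the other 0 Gy group, the value was -0.40 at 1 week, -0.45 at 2 weeks and 0.48 at 3 weeks. Scaled to miR-191a-5p, the value at 4 weeks was -0.069 where the median of all features was -0.90, so relative to that median it was 0.83, against 0.89 under TMM.

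Over all weeks, the 12 libraries of 15 Gy lung were set against the 6 of 0 Gy lung. The 5p arm had 419, 1032 and 2736 CPM as the lowest, the median and the highest value in 15 Gy lungs and 677, 906 and 1501 CPM in 0 Gy lungs, and only 2 of 12 libraries of 15 Gy were above all 0 Gy values. The 3p arm had 1.41, 24.3 and 139.7 CPM in 15 Gy lungs and 0, 8.36 and 14.1 CPM in 0 Gy lungs, with 9 of 12 above all 0 Gy values. The edgeR log2 fold change was 0.27 ± 0.27 (SE) for 5p (adjusted p = 0.868) and 1.21 ± 0.46 for 3p (adjusted p = 0.379), where 0% of 499 features were called, 45 had an unadjusted p under 0.05 and DESeq2 called 6. A two-sided exact permutation test on log2(CPM + 1) gave a difference of 0.17 for 5p (p = 0.622) and of 1.73 for 3p (p = 0.027). Adjusted over the 494 features of that test, where 0% passed and 28 had an unadjusted p under 0.05, the 3p value was 0.808. Without the shallow libraries the 3p difference was 0.93 (exact permutation p = 0.133, 8 of 11 libraries above all 0 Gy values).

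**Figure D2:**
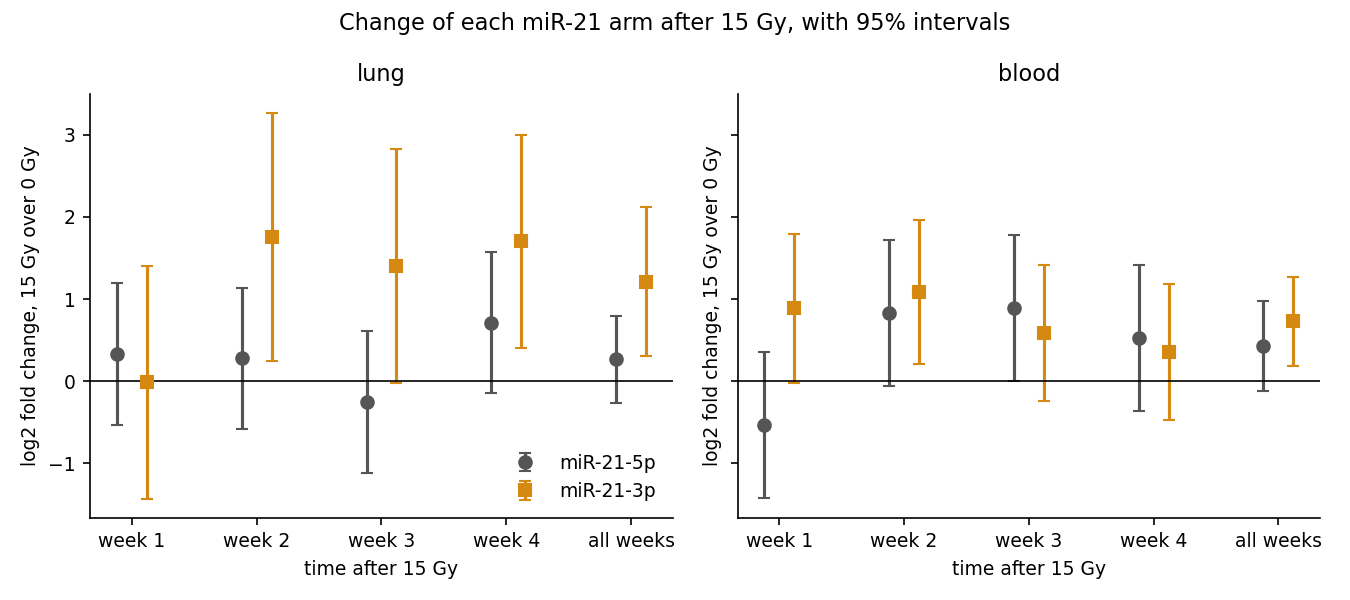
The points are log2 fold changes of 15 Gy over 0 Gy from edgeR for miR-21-5p (grey circles) and miR-21-3p (orange squares) at each week and over all weeks, and the bars are 95% intervals. In lung the 3p values of weeks 2, 3 and 4 were 1.76, 1.40 and 1.70 while the 5p values were 0.28, -0.25 and 0.71, and the intervals of the arms overlap at every week in both tissues.

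In blood the 5p arm stood higher in the list, at rank 26 of the known rat miRNAs, and the 3p arm at rank 126. In 15 Gy blood, miR-21-5p had 252, 160 and 119 CPM at 1 week, 581, 433 and 347 CPM at 2 weeks, 383, 439 and 350 CPM at 3 weeks, and 361, 318 and 233 CPM at 4 weeks. In 0 Gy blood it had 350.4, 317 and 98.6 CPM at 1 week and 284, 243 and 105 CPM at 4 weeks. At 2 weeks the lowest 15 Gy library was just under the highest 0 Gy library, and at 3 weeks all 15 Gy libraries were above all 0 Gy libraries of 4 weeks, as were 12.8% of 288 features.

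By mean, blood 5p was highest 2 weeks after 15 Gy, at 454 ± 118 CPM (SD, n = 3 each), then 391 ± 45.2 CPM at 15 Gy 3 weeks, 304 ± 65.2 CPM at 15 Gy 4 weeks, 255 ± 137 CPM at 0 Gy 1 week, 211 ± 93.8 CPM at 0 Gy 4 weeks and 177 ± 68.1 CPM at 15 Gy 1 week. All neighbours had overlapping ranges, and only the gap between 3 and 4 weeks after 15 Gy exceeded the larger SD. The order thus placed irradiated blood of weeks 2 to 4 first and irradiated blood of week 1 last, with both 0 Gy groups between them.

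The 3p arm in blood was counted at 3 to 34 reads, so a single read is a large share of its value. In 15 Gy blood it had 4.14, 5.02 and 4.6 CPM at 1 week, 6.04, 4.26 and 5.49 CPM at 2 weeks, 6.06, 5.43 and 6.33 CPM at 3 weeks, and 2.38, 8.05 and 4.25 CPM at 4 weeks. In 0 Gy blood it had 2.28, 1.86 and 3.44 CPM at 1 week and 5.64, 3.48 and 2.71 CPM at 4 weeks. At 1 and 2 weeks all 15 Gy libraries were above all 0 Gy libraries of 1 week, as were 6.6% of all features at 1 week and 9.03% at 2 weeks, while at 3 and 4 weeks the groups overlapped. The means were 5.94 ± 0.46, 5.26 ± 0.91, 4.89 ± 2.89 and 4.59 ± 0.44 CPM at 3, 2, 4 and 1 weeks after 15 Gy, against 3.94 ± 1.52 CPM at 0 Gy 4 weeks and 2.53 ± 0.82 CPM at 0 Gy 1 week, and no neighbours in this order were apart by more than the larger SD.

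With edgeR over 289 features in blood, neither arm passed the adjusted threshold at any week. The share of all features called was 0.346% at 1 week, 0.346% at 2 weeks, 0% at 3 weeks and 0% at 4 weeks. At 3 and 4 weeks, 43 and 22 features had an unadjusted p under 0.05, and DESeq2 called 4 at each. The log2 fold change of miR-21-5p was -0.53 ± 0.45 (SE) at 1 week (adjusted p = 0.958), 0.83 ± 0.45 at 2 weeks (adjusted p = 0.469), 0.89 ± 0.45 at 3 weeks (adjusted p = 0.367) and 0.53 ± 0.45 at 4 weeks (adjusted p = 0.847, edgeR). That of miR-21-3p was 0.89 ± 0.46 at 1 week (adjusted p = 0.817), 1.09 ± 0.45 at 2 weeks (adjusted p = 0.325), 0.59 ± 0.42 at 3 weeks (adjusted p = 0.523) and 0.36 ± 0.42 at 4 weeks (adjusted p = 0.926, edgeR). Both arms were therefore positive from 2 to 4 weeks, and the 95% interval excluded 0 only for 3p at 2 weeks, where it began at 0.21.

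The blood values of weeks 1 and 2 rest on libraries whose labels are in doubt. With the libraries 15 Gy 1 week replicate 2 and 0 Gy 1 week replicate 1 exchanged, the 5p value was 0.32 at 1 week and 1.24 at 2 weeks, and the 3p value was 0.08 at 1 week and 0.61 at 2 weeks. Without the 4 libraries off the read totals, the 5p value was -1.57 at 1 week and 0.45 at 2 weeks, and the 3p value was 0.99 at 1 week and 1.26 at 2 weeks. The lowest adjusted p among these was 0.16 (edgeR, 5p at 2 weeks). The values of 3 weeks, whose controls are not in doubt, stayed at 0.81 to 0.89 for 5p and at 0.52 to 0.59 for 3p. Single libraries also moved these values. Without 0 Gy 1 week replicate 3 the 5p value at 2 weeks was 0.43, without 0 Gy 4 weeks replicate 3 it was 0.57 at 3 weeks and 0.21 at 4 weeks, and without 15 Gy 4 weeks replicate 2 the 3p value at 4 weeks was -0.34.

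Over all weeks in blood, the 5p arm had 119, 349 and 581 CPM as the lowest, the median and the highest value in the 12 libraries of 15 Gy and 98.6, 264 and 350.4 CPM in the 6 libraries of 0 Gy. The 3p arm had 2.38, 5.23 and 8.05 CPM in 15 Gy blood and 1.86, 3.07 and 5.64 CPM in 0 Gy blood. The groups overlapped for both arms, with 5 of 12 libraries of 15 Gy above all 0 Gy values for 5p and 4 of 12 for 3p. The edgeR log2 fold change was 0.43 ± 0.28 (SE) for 5p (adjusted p = 0.443) and 0.73 ± 0.28 for 3p (adjusted p = 0.219), where 1.04% of 289 features were called. The exact permutation test gave 0.56 for 5p (p = 0.134) and 0.56 for 3p (p = 0.01, 11 of 12 libraries of 15 Gy above the 0 Gy median), and adjusted over 288 features, of which 0% passed and 46 had an unadjusted p under 0.05, the 3p value was 0.218. Without the 4 libraries in doubt the edgeR values were 0.04 for 5p and 0.77 for 3p, and with the exchange 0.75 and 0.41. Leaving out 0 Gy 1 week replicate 3 alone gave 0.19 for 5p.

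The size of the blood values depended on the scaling. Without miR-486-5p in the table, the 5p value at 2 weeks was 0.84 against 0.83 with it. Scaled to library totals alone, the 5p arm at 2 weeks had 1083, 637 and 607 CPM in 15 Gy blood and 357, 236 and 49.8 CPM in 0 Gy blood of 1 week, without overlap, as did 59.4% of all features on that scale, and the log2 fold change was 1.86. The median over all features was then 1.17, so relative to it the 5p arm was higher by 0.69, against 0.77 under TMM. For 3p the same values were 2.27, and 1.1 relative to the median. At 2 weeks miR-486-5p itself had a log2 fold change of -1.40 (adjusted p = 0.218, edgeR), whereas the other red cell miRNAs of the list were positive, miR-144-3p at 1.37, miR-144-5p at 1.46, miR-451-5p at 0.83 and miR-16-5p at 0.08, and 0 of 5 were called. Across the 18 blood libraries the log2 level of miR-21-5p had a Pearson r of -0.65 with that of miR-486-5p and of -0.32 with log depth, which is a description of libraries that share the scaling.

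In bulk blood and lung, fewer cells of a type and less RNA per cell cannot be told apart. The markers of blood cells moved beside these values. At 2 weeks in blood the leukocyte miRNAs miR-142-3p and miR-142-5p had log2 fold changes of 1.34 and 1.85 (adjusted p = 0.218 for each, edgeR), miR-223-3p of myeloid cells -0.15, and the fourth of that list was not tested there. The median of the 3 tested was 1.34, against 0.05 over all features. The 3 lymphocyte miRNAs miR-150-5p, miR-342-3p and miR-181a-5p had a median of -0.80 at 2 weeks. Over all weeks all 3 were negative, at -2.47, -0.68 and -0.23 on the log2 scale. Only miR-150-5p was called (adjusted p = 0.00614, edgeR), where 1.04% of all features were called. The leukocyte list summed to 81.8 to 585 CPM in 15 Gy blood and 124 to 235 CPM in 0 Gy blood, and none of its members was at 0 in all libraries. The red cell list summed to 383880 to 1726600 CPM in 15 Gy blood and 857390 to 1900900 CPM in 0 Gy blood, TMM-scaled values that can pass the nominal total and that consist mostly of miR-486-5p. The median log2 fold change of its 5 members at 2 weeks was 0.83. Their part in the miR-21 values was not tested.

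In lung the miRNAs of inflammation moved beside the arms at 4 weeks. Of the 5 on the list, 3 passed the filter, miR-146a-5p and miR-146b-5p, which are induced through NF-kB and restrain it, and miR-132-3p, which is induced by CREB. All 3 had positive log2 fold changes at 4 weeks, 1.49 for miR-146a-5p, 1.19 for miR-146b-5p and 0.88 for miR-132-3p, with a median of 1.19 against -0.18 over all features, and 0 of 3 passed the adjusted test (adjusted p = 0.453, 0.453 and 0.575, edgeR). The list summed to 9112 to 36037 CPM in 15 Gy lungs and 9447 to 16975 CPM in 0 Gy lungs. The list of matrix and TGF-beta miRNAs, the miR-29 and miR-199a members and miR-214-3p, had 6 of 6 tested, 0 called in either direction at any week and a median of 0.16 at 4 weeks. The p53 target miR-34a-5p had 0.44 at 4 weeks and 0.41 over all weeks (adjusted p = 0.55, edgeR). In lung the leukocyte list had medians of -1.25, 0.02, 0.08 and 0.46 at weeks 1 to 4 with 0 of 3 called at each. Its member miR-142-5p had -1.59 at 1 week (adjusted p = 0.298) and 1.34 at 4 weeks (adjusted p = 0.453, edgeR), and its summed level was 71.7 to 516 CPM in 15 Gy lungs and 129 to 299 CPM in 0 Gy lungs. Markers of other cells also moved in lung, none past the adjusted threshold. At 3 and 4 weeks the smooth muscle miRNA miR-143-3p had -1.39 and -1.10, and miR-145-5p had -0.83 and -0.68. Their summed levels were 50102 to 118090 CPM in 15 Gy lungs and 62887 to 387230 CPM in 0 Gy lungs. The 387230 CPM is a single library of 0 Gy 4 weeks, the control of both weeks. The others of that group had 86939 and 90296 CPM. Without irradiation miR-143-3p was 1.37 higher on the log2 scale at 4 weeks than at 1 week. After 15 Gy the sums were 56998, 72789 and 85468 CPM at 3 weeks and 66940, 78173 and 118090 CPM at 4 weeks. The epithelial list had medians of 0.04 and 0.10 at these weeks, with its member miR-375-3p at -1.62 and -1.47. The red cell list had medians of 0.32, 0.59 and 0.52 at weeks 2 to 4, with miR-451-5p at 2.66 and miR-486-5p at 2.26 at 3 weeks. It summed to 12874 to 550840 CPM in 15 Gy lungs (to 60328 CPM without the shallow library) and 8273 to 92404 CPM in 0 Gy lungs. The fold changes at 3 weeks include that shallow library, which has the 550840 CPM. The others of its group had 12874 and 21944 CPM, against 9404, 22981 and 92404 CPM at 0 Gy 4 weeks. The part of these cells in the miR-21 values of lung was not tested.

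The ratio of the arms within a library does not depend on scaling. It is given as log2 of 5p counts over 3p counts, each with 0.5 added, and as the 3p share of the reads of both arms. The 5p arm held nearly all reads. In lung the 3p share was 1.65% (95% Clopper-Pearson interval 1.47 to 1.84) of the summed reads of 15 Gy libraries and 1.12% (0.922 to 1.34) of those of 0 Gy libraries. In blood it was 1.52% (1.28 to 1.79) in 15 Gy libraries and 1.30% (0.899 to 1.81) in 0 Gy libraries. These intervals cover counting error only, since reads after PCR are not independent molecules.

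By library in lung, the 3p share after 15 Gy was 0.158%, 1.95% and 0.927% at 1 week, 1.62%, 2.09% and 6.47% at 2 weeks, 1.93%, 1.94% and 25% at 3 weeks, and 1.83%, 2.04% and 1.61% at 4 weeks. At 0 Gy it was 1.04%, 1.25% and 0% at 1 week and 1.25%, 1.22% and 0.426% at 4 weeks. The 25% and the 0% are 1 of 4 and 0 of 14 reads in the shallow libraries, with intervals of 0.631 to 80.6% and 0 to 23.2%. Of the other libraries, all 8 of weeks 2 to 4 after 15 Gy, weeks grouped after the values were seen, had a larger 3p share than all 5 of 0 Gy, and the arm ratio separated these libraries in 1.67% of 60 precursors, which is miR-21 alone. The counts behind single libraries are small, so that the interval of the lowest of these, 0.697 to 3.15% on 8 reads of 3p at 4 weeks, includes 4 of the 5 shares of 0 Gy lungs.

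The log2 ratio averaged 5.50 ± 1.79 in 15 Gy lungs (SD, n = 12) and 6.33 ± 0.91 in 0 Gy lungs (SD, n = 6), a difference of -0.83 that was within the spread (two-sided exact permutation p = 0.329). Without the shallow libraries it was 5.89 ± 1.23 (SD, n = 11) in 15 Gy lungs and 6.62 ± 0.63 (SD, n = 5) in 0 Gy lungs (exact permutation p = 0.249). The libraries of 1 week after 15 Gy had ratios of 8.98, 5.48 and 6.71, of which the highest has 2 reads of 3p. Without that library the difference was -1.14 (exact permutation p = 0.0971), and without the shallow library of 3 weeks alone it was -0.44. By group the mean was 7.06 ± 1.77 at 1 week, 5.06 ± 1.12 at 2 weeks, 4.17 ± 2.55 at 3 weeks and 5.71 ± 0.15 at 4 weeks after 15 Gy, against 5.87 ± 0.89 at 0 Gy 1 week and 6.78 ± 0.82 at 0 Gy 4 weeks (SD, n = 3 each). Without its shallow library, 15 Gy 3 weeks averaged 5.64 ± 0.0011 and 0 Gy 1 week 6.38 ± 0.20 (SD, n = 2 each). A comparison of 3 with 3 libraries cannot go below an exact p of 0.1.

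Leaving out 1 week was a choice made after the values were seen, so the ranges that follow are a description with no test. Without the shallow libraries, the log2 ratio ran from 3.79 to 5.90 in the 8 lungs of weeks 2 to 4 after 15 Gy and from 6.24 to 7.73 in the 5 lungs of 0 Gy. The groups did not overlap. Among the 60 precursors with both arms at a mean of at least 5 reads in lung, miR-21 was the only one without overlap in this grouping, which makes 1.67% of them. In blood the same weeks gave 5.28 to 7.11 in 9 libraries of 15 Gy and 4.63 to 7.19 in 6 libraries of 0 Gy, and 0% of 25 precursors were without overlap. Over the 16 lung libraries of full depth the log2 ratio had a Pearson r of 0.52 with log depth, and over the 18 blood libraries of -0.11, and the part of depth in the lung ratios was not tested.

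**Figure D3:**
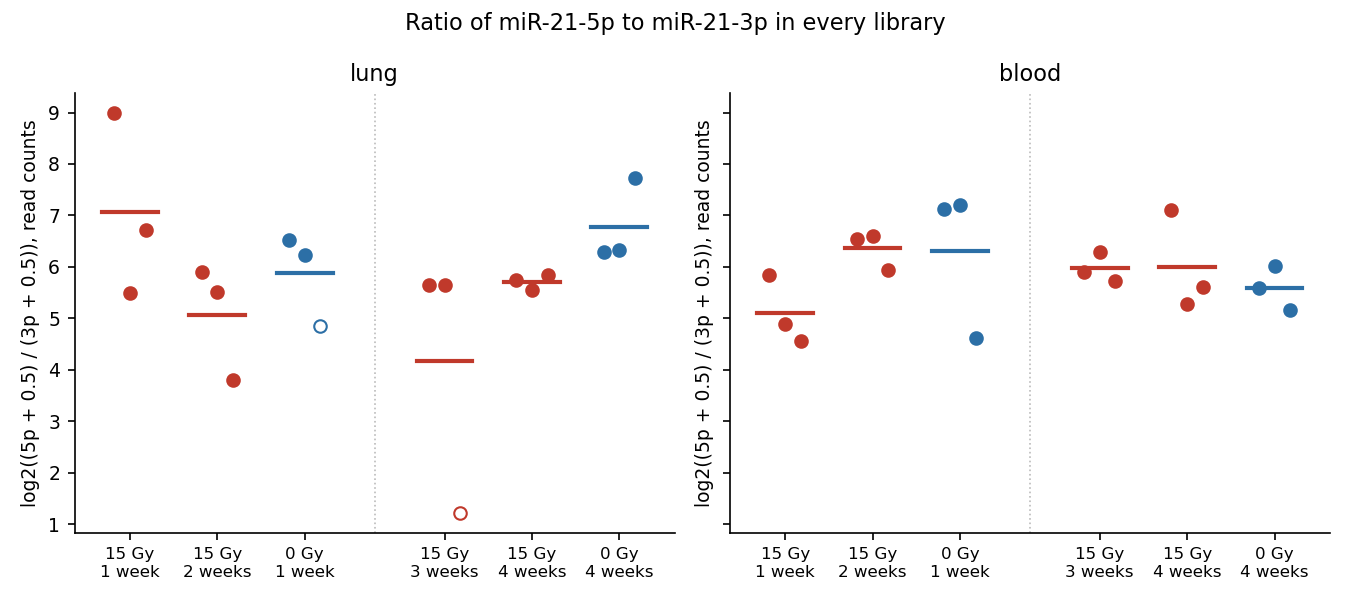
Each point is the log2 ratio of 5p to 3p read counts, with 0.5 added to each, in a library of lung (left) or blood (right), with 15 Gy in red, 0 Gy in blue, a bar at the group mean and open points for the 2 shallow lung libraries. Filled points of 2 to 4 weeks after 15 Gy in lung lie between 3.79 and 5.90, below the filled 0 Gy points at 6.24 to 7.73, while in blood the groups overlap. That grouping of weeks was chosen after the values were seen, and 1.67% of 60 lung precursors, miR-21 alone, did not overlap in it. The lung points of 1 week after 15 Gy, left out of it, lie at 8.98, 5.48 and 6.71.

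Set among all precursors over all weeks, the change of the miR-21 ratio after 15 Gy was the sixth in size of 60 in lung, and was not called (adjusted p = 0.85 over 60, exact permutation test). The share of precursors called in lung was 1.67%, a single one, miR-101a, with a difference of 0.76 (adjusted p = 0.0485, exact permutation test), named here after its value was seen. In blood 0% of 25 precursors were called, and 3 had an unadjusted exact permutation p under 0.05, namely miR-18a, miR-30a and miR-423, also named after their values were seen. There the log2 ratio of miR-21 averaged 5.86 ± 0.73 after 15 Gy (SD, n = 12) and 5.95 ± 1.04 at 0 Gy (SD, n = 6), a difference of -0.09 (exact permutation p = 0.822). By blood library the 3p share was 0.654% to 3.73% after 15 Gy and 0.583% to 3.37% at 0 Gy. With the 2 exchanged blood libraries the difference was 0.46 (exact permutation p = 0.266).

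**Figure D4:**
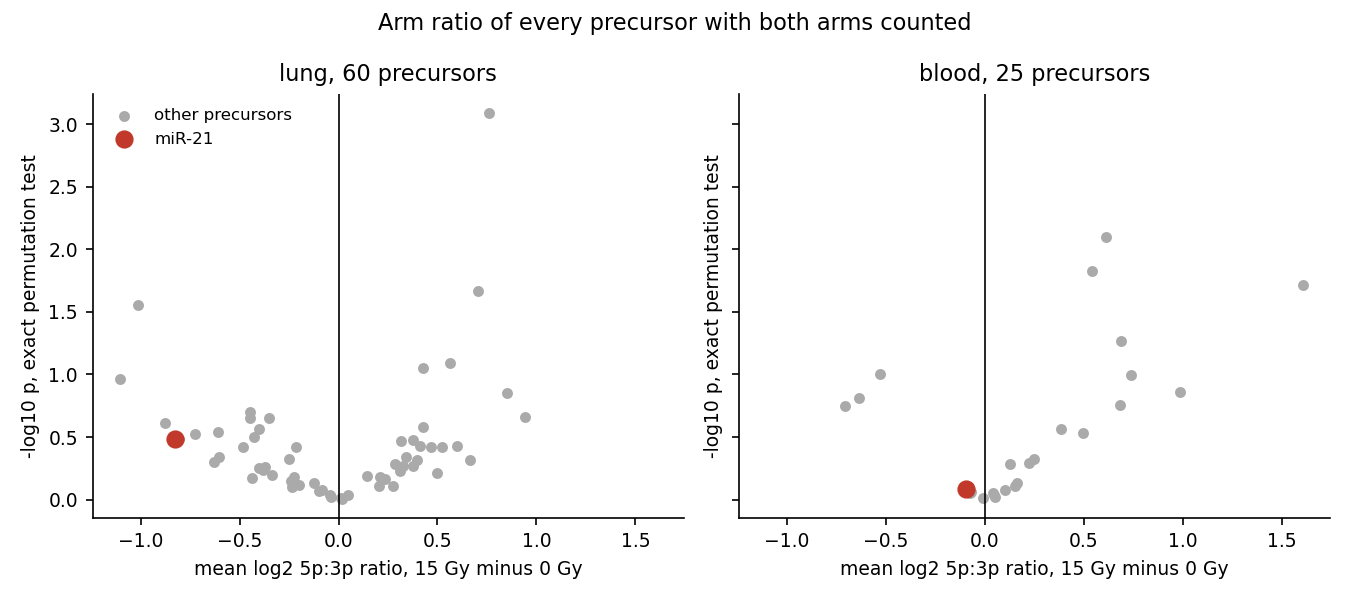
Each point is a precursor with both arms counted, 60 in lung (left) and 25 in blood (right), placed by the mean log2 5p to 3p ratio of 15 Gy minus 0 Gy libraries (horizontal) and by -log10 of the exact permutation p (vertical), with miR-21 in red. miR-21 lies at -0.83 in lung and at -0.09 in blood, and other precursors have both larger differences and smaller p.

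The excess of 5p over 3p was also compared between tissues. The mean log2 ratio in lung minus that in blood was -0.11 over 18 libraries each (permutation p = 0.798), and 0.23 without the shallow libraries (permutation p = 0.504). By the size of the ratio of summed reads, miR-21 was the 19th of 60 precursors in lung and the sixth of 25 in blood.

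Without irradiation, 4 weeks were compared with 1 week to see how the arms vary in time. In lung the log2 fold change was 0.73 ± 0.44 (SE) for 5p (adjusted p = 0.606) and 0.49 ± 0.73 for 3p (adjusted p = 0.978), where edgeR called 0% of 499 features, 36 had an unadjusted p under 0.05 and DESeq2 called 6. The 5p libraries of 4 weeks, at 1115, 1037 and 1501 CPM, were all above those of 1 week, at 776, 677 and 753 CPM, as were 11.3% of all features. This difference between controls, 0.73, is as large as the 0.71 of 15 Gy over 0 Gy at 4 weeks. In blood it was -0.28 ± 0.45 for 5p (adjusted p = 1) and 0.67 ± 0.46 for 3p (adjusted p = 0.961, edgeR), where 0.346% of features were called.

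Between the tissues at 0 Gy the sign turned on the scaling, and the cause was not tested. As a share of library counts, miR-21-5p had 935, 820 and 1205 CPM at 1 week and 1187, 1130 and 694 CPM at 4 weeks in 0 Gy lung, against 357, 236 and 49.8 CPM and 246, 209 and 112 CPM in 0 Gy blood, with no overlap, as for 25.7% of 571 features. The log2 fold change on that scale was 2.30 for 5p (adjusted p = 7.5e-05, edgeR) and 1.97 for 3p (adjusted p = 0.00151, edgeR), and on the scale of miR-191a-5p, often used as a reference, 2.84 and 2.17. Under TMM it was -0.34 ± 0.36 (SE) for 5p (adjusted p = 0.4) and -0.76 ± 0.46 for 3p (adjusted p = 0.144, edgeR), and under RLE size factors -1.03 (adjusted p = 0.00163) and -1.44 (adjusted p = 0.00899, edgeR). DESeq2 called both arms lower as well, at -1.03 and -1.39 (adjusted p = 0.000111 and 0.0192). Relative to the median over all 576 features of each fit, which was 1.85 under TMM and 4.34 under library totals, both arms lay below it under each scaling, by 1.78 to 2.24 for 5p and by 2.37 to 2.65 for 3p. The edgeR fit called 75% of features in one direction or the other. Leaving out single 0 Gy libraries moved the TMM value of 5p to between -2.04 and -0.30 and that of 3p to between -2.45 and -0.77, and in 11 of 12 cases both arms were then called lower in lung, so neither the sizes nor the missing calls under TMM were stable.

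**Figure D5:**
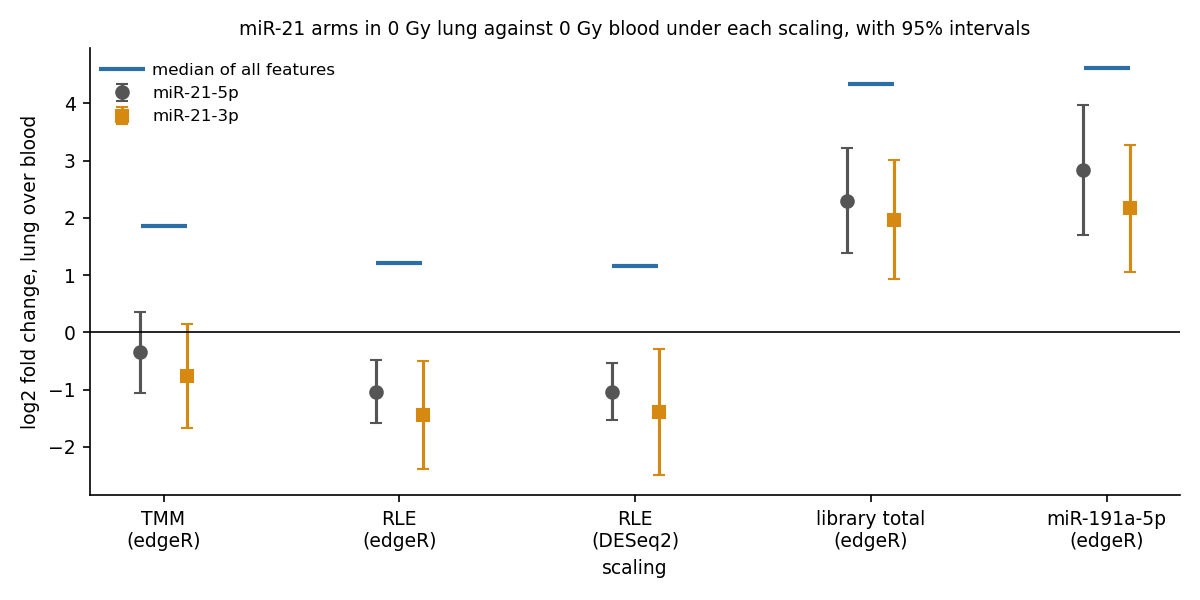
Points are log2 fold changes of 0 Gy lung over 0 Gy blood for miR-21-5p (grey circles) and miR-21-3p (orange squares) under 5 scalings, bars are 95% intervals, and blue dashes are the median over all features. The sign of both arms changes between TMM or RLE and the scalings by library total or miR-191a-5p, and both arms lie below the median in each.

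The change after 15 Gy in blood minus that in lung was tested as an interaction. Here, as in the other comparisons between tissues, lung and blood libraries were taken as independent. Whether they share rats was not tested. Over all weeks it was 0.38 ± 0.44 (SE) for 5p (adjusted p = 0.919) and -0.25 ± 0.55 for 3p (adjusted p = 1), and at 2 weeks 0.95 ± 0.72 for 5p (adjusted p = 0.875) and -0.28 ± 0.91 for 3p (adjusted p = 1, edgeR). The 95% intervals at 2 weeks ran from -0.47 to 2.37 for 5p and from -2.06 to 1.50 for 3p, so a tissue difference of several fold in either arm was not detectable with these libraries. Of all 576 features, 0.174% were called over all weeks and 0.174% at 2 weeks.

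The miRNAs whose level was most like that of miR-21-5p were found by Pearson r of log2(CPM + 1) over the libraries of full depth. In lung they were miR-146b-5p (r = 0.82), miR-98-5p of the let-7 family (0.75) and miR-101b-3p (0.67) over 16 libraries. In blood they were miR-30e-5p (0.94), miR-26b-5p (0.93) and miR-106b-5p (0.89) over 18 libraries. The median r of the known rat miRNAs was -0.02 in lung and 0.15 in blood, and the points share scaling and depth. The 3p arm had an r with its own 5p arm of 0.44 in lung and 0.26 in blood. Most like it were miR-142-5p (0.76), miR-879-5p (0.75) and miR-22-3p (0.74) in lung, and miR-872-3p (0.78), miR-144-3p (0.70) and miR-18a-5p (0.66) in blood, values that rest on few reads of 3p.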

How the data were processed

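The deposited values are unnormalised read counts per miRNA, which the authors made by adapter trimming and alignment to miRBase, over 947 features and 36 libraries. The submitters' processing notes name Trim Galore 0.2.5, Bowtie 1.1.1 and the build rn4. Known miRNAs were assigned first, and new ones were predicted from the reads that remained. How a read matching several known miRNAs was counted is not given in the sources used here. Columns were matched to samples by their descriptions, and 0 columns were left unmapped. Testing used edgeR 4.0.16 under R 4.3.3 (filterByExpr, TMM, quasi-likelihood F test, all groups of a tissue in one fit, Benjamini-Hochberg over all features) with DESeq2 1.42.0 beside it, and tests were checked on simulated data. The SE is the log2 fold change over the root of F, and its 95% interval assumes a normal error. Exact permutation tests and arm ratios used Python 3.11.15 and scipy 1.17.1, two-sided, with 100000 permutations between tissues. A shallow library has under 0.1 of the median depth of its tissue, and limits for a count of 0 use 3 counts. Precursors entered the arm test with a mean of at least 5 reads in each arm. Both arms were reported in every comparison, with list members where they touch them and the 3 known miRNAs most like each arm. The members and lists were chosen with earlier results of these data known. Replicate numbers were not used to pair the libraries in the main fits. Alternatives were other filters, scalings (RLE, library totals, miR-191a-5p), DESeq2, other controls, a replicate block and libraries left out. Using the other 0 Gy group, leaving out 4 blood libraries the grouping of weeks 2 to 4 and the shares of features without overlap were added after the data were seen. Read totals listed by the study served only to check the labels.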

Additional observations from a re-analysis of the deposited data

How the results depend on the processing

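Dixon's ratio was taken over the 6 libraries of 0 Gy of each tissue, for the CPM of each arm and the log2 arm ratio only. No value of these stood apart by it, which says nothing on depth or on other miRNAs. No log2 fold change after 15 Gy passed the adjusted threshold under the alternatives except miR-21-3p in lung at 4 weeks with known rat miRNAs only (1.82, adjusted p = 0.0462, edgeR). The cause of the sign changes that follow was not tested. With library totals, lung 5p was -0.059 at 1 week, -0.16 at 2 weeks and 0.055 at 3 weeks, and with miR-191a-5p -0.26 at 2 weeks, -0.069 at 4 weeks and -0.29 over all weeks. Blood 3p at 0 Gy, 4 weeks against 1 week, was -0.066 with miR-191a-5p. Lung 3p at 1 week was 0.021 with no filter, 0.020 with known miRNAs, 0.041 with only the groups compared and 0.011 without miR-486-5p. Lung 5p at 2 weeks was -0.031 among features with a mean above 1000 counts, a limit that left no 3p arm. With both 0 Gy groups as control, lung 5p was -0.032, -0.087 and 0.11 at 1, 2 and 3 weeks, and with the other 0 Gy group -0.40, -0.45 and 0.48. With the 2 blood libraries exchanged, blood 5p was 0.32 at 1 week and 0.13 at 0 Gy 4 weeks against 1 week, and the blood arm ratio 0.46, or 0.23 without both. The lung arm ratio minus the blood one was 0.23 without shallow libraries.

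For 0 Gy lung against blood, 5p and 3p were 2.30 and 1.97 with library totals, 2.84 and 2.17 with miR-191a-5p, -1.03 and -1.44 with RLE, -1.03 and -1.39 with DESeq2, -1.79 and -2.44 without the 2 blood libraries and -1.85 and -1.92 without the 4. Blood minus lung over all weeks was -0.22 for 5p without the 4 blood libraries. For 3p it was 0.15 with library totals, 0.10 with miR-191a-5p and 0.045 without miR-486-5p, and at 2 weeks 0.091 with no filter, 0.82 with library totals and 0.18 without miR-486-5p.

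Leaving out each library in turn gave these ranges where a sign or call changed: blood 3p at 4 weeks -0.34 to 0.69, blood 5p at 0 Gy -0.63 to 0.053, lung 5p at 1 week -0.00067 to 0.53, lung 3p at 1 week -0.79 to 0.53, lung against blood -2.04 to -0.30 for 5p and -2.45 to -0.77 for 3p, blood minus lung 3p at 2 weeks -0.68 to 0.10, the blood arm ratio -0.36 to 0.15 and the lung minus blood ratio -0.30 to 0.15. Whether replicate numbers pair the libraries was not settled. Correlations of same-numbered libraries had a median of 0.05 in lung and 0.07 in blood, against -0.03 and -0.02 for other numbers. Of 18 libraries, 12 in lung and 10 in blood were most like those of their own number. The replicate block changed no call. Under it lung 3p was 1.68 at 4 weeks and blood 5p 0.94 at 2 weeks. For that blood value the SE was 0.29, against 0.45 without the block (adjusted p = 0.168, edgeR with the block). Exchanging the blood libraries leaves the lung minus blood ratio as it was, so it has no value of its own. Depth limits the 3p arm, with 0 to 107 reads in lung and 3 to 34 in blood.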
